A study of Saccharomyces cerevisiae with 32 samples.

Results

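The genes of the small subunit of the cytosolic ribosome of Saccharomyces cerevisiae are described here, taken as every gene whose symbol is RPS followed by a digit, together with ASC1. The rule found 57 genes among 6477 in the RefSeq gene table. Of these, 48 formed 24 pairs of A and B paralogues and 9 were single-copy, among them RPS2, RPS3, RPS31 and ASC1. RNA probes were analysed for 56 of the 57 genes, out of 7056 probes. For 54 genes an intergenic region bordering the 5′ end was found, 55 regions in all out of 7047, because RPS27A had 2. No such region was analysed for RPS3, RPS20 or RPS22B.

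Cells were grown in YPD, a rich medium, at 25 °C to an OD600 near 0.8, and either shifted to 37 °C for 15 min or mock treated at 25 °C. For chromatin immunoprecipitation (ChIP), DNA from heat shocked and mock treated cells of the same strain was hybridised together on an array of intergenic regions, 1 in each channel. Cells for ChIP were crosslinked with 1% formaldehyde for 2 h. The strains carried HA-tagged TBP, TAF1, Spt3, Mot1 or Bdf1, or were labelled Null, and each of these groups had 4 arrays. A further 4 arrays compared input DNA of the TAF1 strain with input DNA of the Spt3 strain. RNA was measured in the strain labelled Null (BY4741) alone, on 2 arrays of heat shocked against mock treated cells and 2 arrays of mock treated against mock treated cells. The tagged factors and the RNA thus came from different strains, and the labels do not say whether arrays of a group came from separate cultures, so that p-values measure the spread between arrays, which may be technical.

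The 40S subunit decodes mRNA, and its proteins are made in nearly equal amounts from a set of highly transcribed genes. Many of their promoters bind Rap1, which recruits Fhl1 and its coactivator Ifh1, and transcription of these genes depends strongly on TFIID. TFIID contains TBP, the protein that binds the TATA box, and TAF1, another of its subunits. Spt3 is the TBP-contacting subunit of the SAGA coactivator, Mot1 uses ATP to strip TBP off its sites. Bdf1 carries bromodomains, which bind acetylated histones, and associates with TFIID. In budding yeast the transcripts of ribosomal protein genes are known to decline transiently after heat shock and other stresses.

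All values below are log2 ratios of heat shocked to mock treated cells, relative to the median of all features on the same array. An effect of -1 is thus a 2-fold fall relative to the median feature. Effects are limma estimates with their standard errors, and a feature was called when its Benjamini-Hochberg adjusted p over all features tested was under 0.05. The direction of the deposited ratios is not stated and was taken as the likely one, with the RNA of chaperone genes up and TBP at chaperone promoters up. On that reading 14 of 16 chaperone probes rose (median 1.88) and TBP rose at 10 of 17 chaperone regions (median 0.49), which is therefore no independent evidence. Under the other reading of the ChIP ratios every ChIP sign below reverses, and sizes and total counts stay. This took ChIP ratios as channel 1 over channel 2 and RNA ratios as channel 2 over channel 1, opposite ways for the 2 kinds of array. A further choice was that the ChIP ratios had not already been turned by condition. Deposited ratios of arrays with opposite channel orders gave r = -0.68 for the pair of heat RNA arrays, but -0.13 to 0.16 for TBP and 0.19 to 0.46 for TAF1, and input arrays, which set TAF1 input against Spt3 input DNA, gave 0.22 to 0.35. Read as turned here, 790 of 6392 regions were called for TBP, 1336 for TAF1 and 2 for Null. Read as already turned, a check added after the values were seen, 3 were called for TBP, 57 for TAF1 and 37 for Null, with 0 of the small subunit regions for any factor. Across 2504 regions of 1 promoter the TBP effect had a Spearman correlation with the RNA effect of 0.44 as turned here and -0.20 as already turned, as a description. Because values are relative to the median feature, a change in RNA per cell or in the share of cells that responded cannot be told apart from a change of equal size in every cell.

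RNA from the small subunit genes fell as a group. All 56 measured genes were lower after heat shock (56 of 56 called), against 18.9% of all 6772 probes called lower and 18.2% called higher. The median effect was -1.97, and 54 of the 56 genes fell at least 2-fold and 26 at least 4-fold. Over all probes the median was 0.01. For each of the 56 genes both heat arrays lay below both mock arrays. How many of all probes did so, or fell at least 2-fold or 4-fold, was not counted. The fall was deeper on heat array B, where the median of the members was -2.39, than on heat array A, where it was -1.61, and 52 of the 56 genes were lower on array B. On the mock arrays A and B the members had medians of 0.03 and -0.07. With heat array B left out 39 of the 56 genes were called, and with heat array A left out 55.

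**Figure D1:**
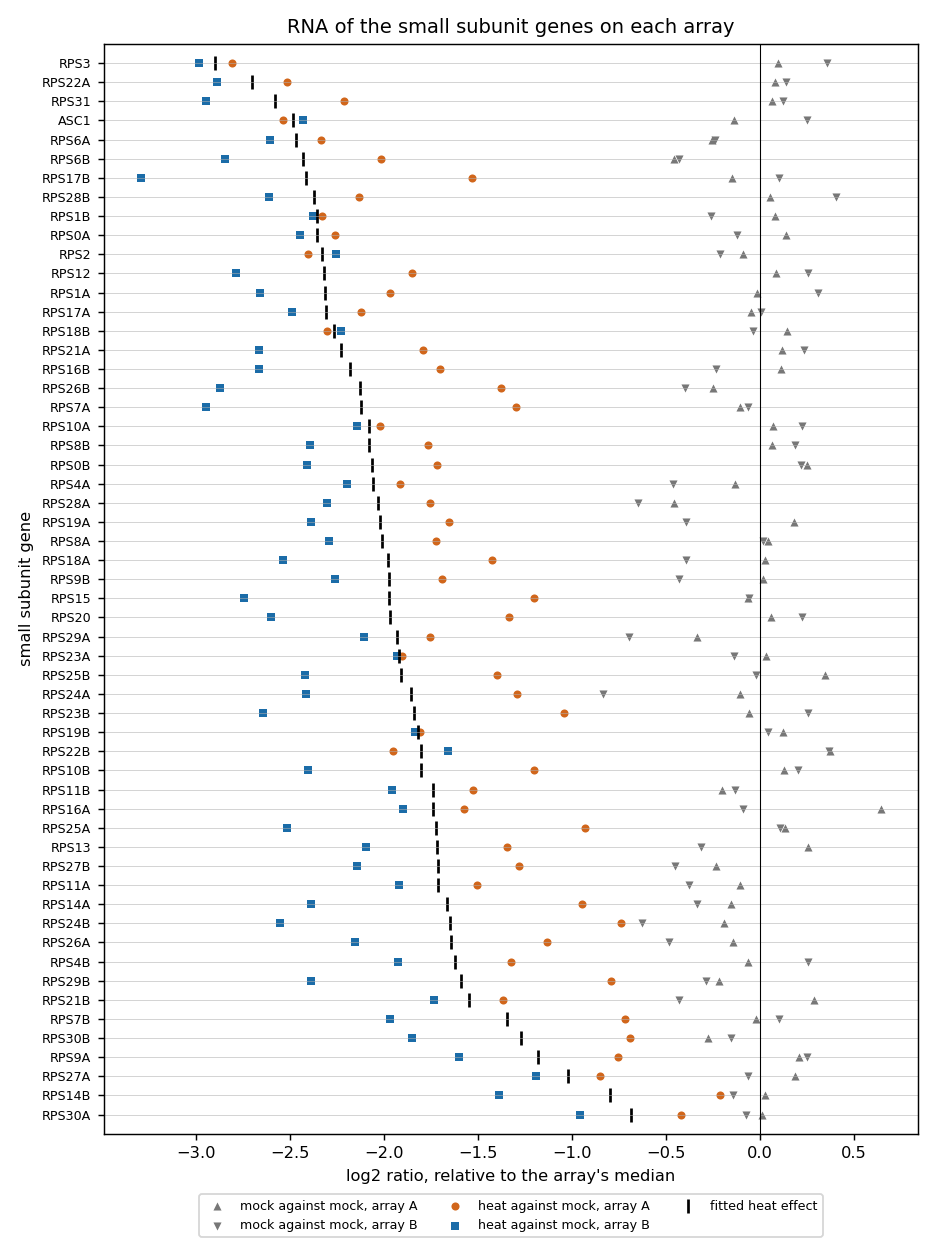
RNA of 56 small subunit genes (rows, ordered by fitted effect) as log2 ratios relative to the array's median, with heat against mock arrays A (circles) and B (squares), mock against mock arrays A and B (triangles) and the fitted heat effect (bars). For each gene both heat arrays lie to the left of both mock arrays, and for 52 genes array B lies to the left of array A.

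RPS3, whose protein lies at the entry of the mRNA channel, had the lowest RNA effect. Its ratios were -2.81 and -2.98 on heat arrays A and B and 0.09 and 0.36 on the mock arrays, an effect of -2.90 ± 0.18 (limma, adjusted p = 8.64e-05). RPS22A followed, with -2.51 and -2.89 on the heat arrays and an effect of -2.70 ± 0.17 (9.08e-05). The next was RPS31, which encodes a fusion of ubiquitin and a 40S protein. It had -2.21 and -2.94 on the heat arrays and an effect of -2.58 ± 0.19 (0.000173).

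ASC1 encodes the yeast homologue of RACK1, a scaffold protein at the head of the 40S subunit, and is named outside the RPS series. Its RNA was at -2.54 and -2.43 on heat arrays A and B and at -0.14 and 0.25 on the mock arrays. It fell by 2.48 ± 0.17 (limma, adjusted p = 0.000115), the fourth lowest effect of the 56, so it moved with the RPS genes in size as well as sign. Both copies encoding Rps6, a protein phosphorylated under TOR control, were among the 8 lowest, RPS6A at -2.47 ± 0.15 and RPS6B at -2.43 ± 0.15. RPS17B was at -2.41 ± 0.28 and RPS28B, which encodes a protein that regulates the decay of its own mRNA, at -2.37 ± 0.21. RPS17B had a wide spread, with -1.53 on heat array A and -3.29 on heat array B.

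The 6 genes with the smallest falls all belonged to paralogue pairs, as did 48 of the 56 measured genes. RPS30A was at -0.42 and -0.95 on heat arrays A and B and at 0.01 and -0.07 on the mock arrays, with an effect of -0.69 ± 0.16 (limma, adjusted p = 0.0163). RPS14B was at -0.21 and -1.39 on the heat arrays, an effect of -0.80 ± 0.21 (0.0244), and is known for the binding of Rps14 to its own transcript. Its value on heat array A lay near its mock value of -0.14, so that most of its effect came from array B. The effects were -1.02 ± 0.17 for RPS27A, -1.18 ± 0.23 for RPS9A, -1.27 ± 0.18 for RPS30B and -1.34 ± 0.24 for RPS7B. With heat array B left out none of these 6 was called, at -0.27 for RPS14B to -0.90 for RPS30B. With all arrays scaled to equal spread these 6 were not called either, and 46 of the 56 genes were.

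The single-copy genes fell at a median of -2.32 (8 of 8 measured called, from -2.90 for RPS3 to -1.72 for RPS13), and the 48 genes with a paralogue at a median of -1.92 (48 of 48 called). The ranges of both sets overlapped. Large subunit genes behaved much alike, with 77 of 80 lower, 0 higher and a median of -1.87. They ran from RPL9A at -3.14 ± 0.16 to RPL41B at 0.43 ± 0.15, and the latter did not pass the test (adjusted p = 0.0636). Of 17 genes that mature the small subunit or escort its proteins 16 fell, with a median of -1.55. Among them were LTV1, a 40S export and assembly factor, at -3.11 ± 0.16, and DIM1, the methyltransferase of the 3′ end of 18S rRNA, at -2.51 ± 0.15. HRR25, a casein kinase, was at -0.10 ± 0.18 (adjusted p = 0.706). Of 15 genes for regulators of ribosomal protein and ribosome biogenesis transcription 3 rose and 3 fell. RAP1 rose by 1.27 ± 0.18 and DOT6, a repressor of ribosome biogenesis genes, by 0.82 ± 0.17, while FHL1 was at -0.90 ± 0.17 and TOD6, the paralogue of DOT6, at -1.91 ± 0.19, both lower.

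Factor occupancy was called changed at few of the small subunit promoters. Of the 55 regions 54 passed the filter on missing values (RPS14A's did not), 22 of which bordered 1 promoter and 32 of which lay between a small subunit gene and a divergently transcribed neighbour, so that their signal cannot be assigned to either gene. Of the 54 regions, 21 combinations of region and factor were called, at 10 regions. In 20 of the 21 combinations all 4 arrays had the sign of the effect once the channel effect was taken off. The combinations were called on these same arrays, so this agreement is partly built in, and it was not counted over other regions. With the channel effect left in, TBP and TAF1 array C at RPS10B (0.04 each) and TAF1 array C at RPS29B (0.08) had the other sign. Of the 10 regions, 8 were shared with a divergent gene.

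For TBP 2 of 54 regions were called higher and 3 lower, against 8.35% and 4.01% of all 6392 regions. The median effect over the 54 regions was -0.11, compared with -0.02 over all regions, and 42 of the 54 estimates were below 0. For TAF1 2 were called higher and 2 lower (12.2% and 8.67% of all regions), with a median of -0.09. For Spt3 0 were called higher and 2 lower (3.88% and 1.77%), with a median of -0.15, and 41 of the 54 estimates were below 0. Its unadjusted p was under 0.05 at 12 of the 54, against 1342 of all 6392 regions. For Mot1 0 were called higher and 3 lower (8.57% and 4.18%), with a median of -0.06. Its unadjusted p was under 0.05 at 9 of the 54, against 1623 of all 6392 regions. For Bdf1 4 were called higher and 3 lower (8.42% and 7.81%), with a median of -0.0074. The members' shares were near or below the shares over all regions for TBP, TAF1, Mot1 and Bdf1, and for Spt3 the calls were only 2 regions. These directions hold relative to the array's median: without centring, where the arrays' own medians enter, the TBP median of the members was 0.09 in place of -0.11, 0 regions were called for TBP, TAF1, Spt3 and Bdf1 (limma), and 52 were called lower for Mot1 and 44 for Null. With arrays weighted by their spread 14 regions were called for TBP. Their directions and the share of all regions called in that setting are not given. Without TBP array A 1 region was called for TBP, without TAF1 array B 2 for TAF1 and 4 for Spt3, without any 1 Spt3 array 0 for Spt3, and without Mot1 array C or D 0 for Mot1.

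The Null immunoprecipitation, which measures the background, had 0 of 54 regions called (limma), against 0.0313% of all regions, and a median of 0.06. An unadjusted p under 0.05 was found at 6 of the 54 and at 1270 of all 6392 regions. The median standard error was 0.13 for TBP, and the 95% interval lay above a 2-fold fall at 53 of 54 regions for TBP, the exception being ASC1, and at 53 of 54 for TAF1, Spt3 and Mot1, where it was RPS11B. The interval is relative to the median region on the array and refers to the whole intergenic fragment. Its standard error was pooled over all 7 groups, whose arrays had median absolute deviations from 0.10 (input array A) to 0.53 (Null array A). The interval may thus be too narrow for the noisier groups. Member regions also shifted together on single arrays, so the 54 intervals are not independent. How many of all regions had such an interval was not counted. ChIP ratios need not be on the same scale as RNA ratios.

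**Figure D2:**
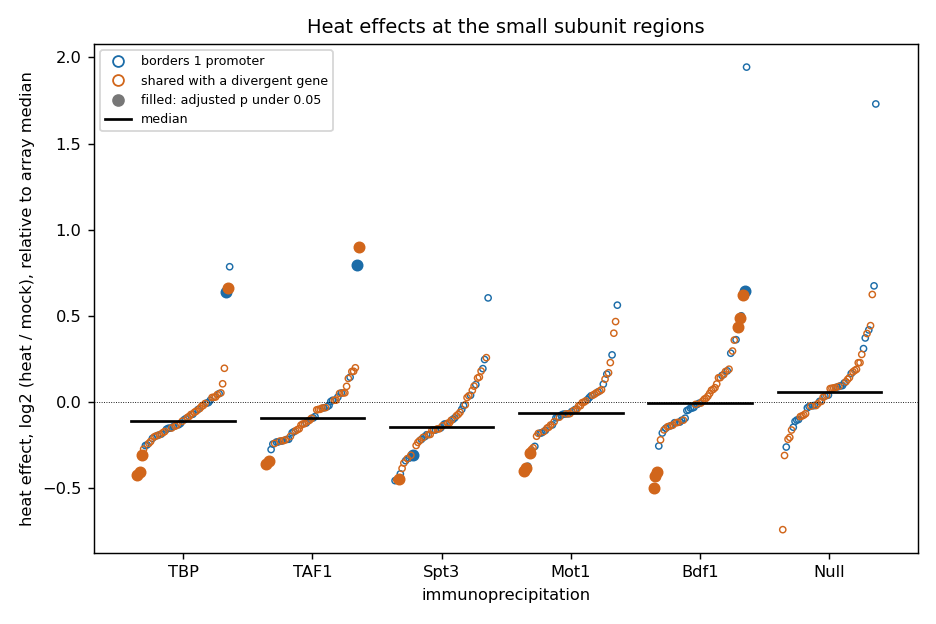
Heat effect at 54 small subunit regions for each immunoprecipitation, as log2 of heat over mock relative to the array's median, with regions ordered by effect within a group, filled symbols for adjusted p under 0.05 and a bar at the median. The medians lie between -0.15 and 0.06, and the calls are a few regions at the ends of each group.

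The level of the members on single arrays varied more than the group medians. The median over the 54 regions was -0.19, -0.44, 0.27 and 0.00046 on TBP arrays A to D and -0.0016, -0.60, 0.24 and 0.02 on TAF1 arrays A to D. On both sets the member median was lowest on array B and highest on array C, so the sign of the group shift was not shared by the arrays. On Spt3 arrays B to E the medians were -0.26, -0.11, -0.22 and -0.06, which all lay below 0. On Mot1 arrays A to D they were -0.08, 0.19, -0.11 and -0.09, and on Bdf1 arrays A to D -0.33, 0.08, 0.16 and -0.06. The Null arrays A to D stood at 0.13, -0.11, 0.09 and 0.08, and the input arrays between -0.10 and 0.15. Null arrays A and B were noisier than C and D over all regions, with a median absolute deviation of 0.53 and 0.41 against 0.17 and 0.15, and their part in the comparisons with Null was not tested beyond leaving each out. Input DNA had 0 of 54 member regions called (limma), against 1 of all 6392 regions, and 0 of the 54 at an unadjusted p under 0.05. How many of all regions had such an unadjusted p is not given. The standard error was pooled with the immunoprecipitation arrays, which had a wider spread, so this test could hardly call an input region.

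**Figure D3:**
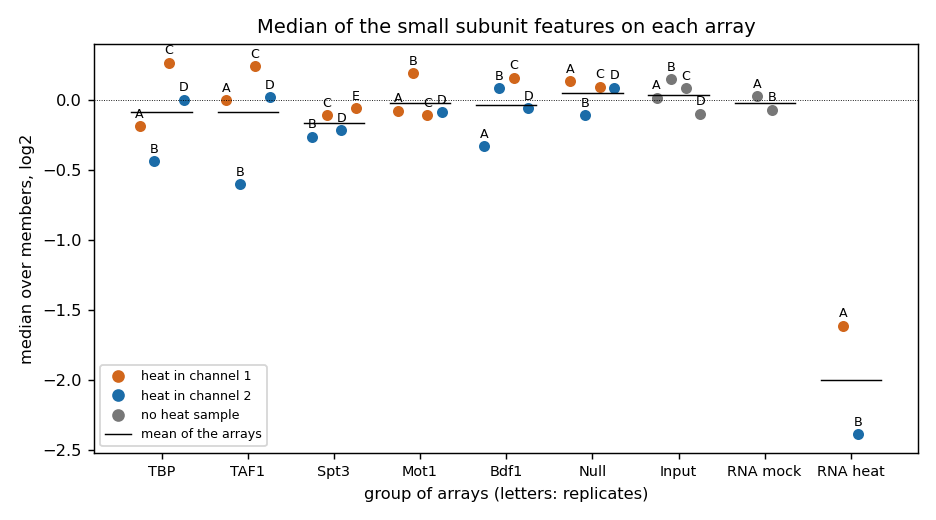
Median log2 value of the small subunit features on each array, by group, coloured by the channel that held the heat shocked sample, with the mean of the arrays as a bar. The RNA heat arrays lie at -1.61 and -2.39, and all ChIP and input arrays lie between -0.60 and 0.27.

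At 3 regions more than 1 factor fell, and each was shared with a neighbour whose RNA also fell. Of the 11 shared regions whose neighbour's RNA was called lower, the other 8 had no factor called, with neighbour RNA effects from -1.79 (RPP2A, beside RPS15) to -0.97 (RPL39, beside RPS22A). The region between RPS10B and RRP5, a gene for pre-rRNA processing, was lower for TBP (-0.31 ± 0.10, limma adjusted p = 0.0363), TAF1 (-0.36 ± 0.10, 0.0102), Mot1 (-0.30 ± 0.10, 0.0498) and Bdf1 (-0.43 ± 0.10, 0.00449). On TBP arrays A to D it stood at -0.41, -0.56, 0.04 and -0.32, and on Bdf1 arrays at -0.43, -0.57, -0.18 and -0.79. The Null arrays were at 0.35, 0.04, 0.11 and -0.04, so that 3 of the 4 TBP arrays and all 4 Bdf1 arrays lay below every Null array. RNA of RRP5 fell by 3.07 ± 0.15 and that of RPS10B fell by 1.80 ± 0.26. With each of the 28 arrays left out in turn, the Mot1 call was kept in 8 cases. The TBP call was lost without TBP array A, B or D.

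The region between RPS29B and TSR1, which encodes a factor of late 40S maturation, was lower for the same 4 factors. TBP was at -0.41 ± 0.11 (limma, adjusted p = 0.0148), TAF1 at -0.34 ± 0.11 (0.0269), Mot1 at -0.40 ± 0.11 (0.0185) and Bdf1 at -0.50 ± 0.11 (0.00357). The 4 TBP arrays stood at -0.49, -0.71, -0.12 and -0.30 and the 4 Null arrays at 0.25, 0.13, 0.23 and 0.15, with no overlap. Spt3 was at -0.12 ± 0.11 there and was not called. RNA of TSR1 fell by 2.20 ± 0.15 and that of RPS29B fell by 1.59 ± 0.21. TAF1 arrays A to D stood at -0.16, -1.09, 0.08 and -0.21, lowest on array B. Without that array the TAF1 calls here and at RPS10B were lost, and the TAF1 call here was lost without TAF1 array A too. The TAF1 call here was kept in 2 of 8 other settings of the processing. The TBP call was also lost without TBP array A or B, and the Mot1 call without Mot1 array A, C or D.

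The region between RPS7A and RKI1, which encodes ribose-5-phosphate isomerase of the pentose phosphate pathway, was lower for TBP (-0.43 ± 0.11, limma adjusted p = 0.0157) and Bdf1 (-0.41 ± 0.12, 0.0202). The TBP arrays were at -0.34, -0.65, -0.54 and -0.17. The RNA effect was -3.30 ± 0.19 for RKI1 and -2.12 ± 0.25 for RPS7A. Null array A, at -0.43, lay among the TBP arrays, and the other 3 Null arrays lay above them. The TBP call was lost without TBP array A, B or C, and the Bdf1 call without Bdf1 array A, C or D.

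At 2 further regions TBP, TAF1 and Bdf1 were higher while RNA of the small subunit gene fell. The region between RPS17B and ADA2, which encodes a subunit of SAGA, rose for TBP by 0.66 ± 0.15 (limma, adjusted p = 0.00597), for TAF1 by 0.90 ± 0.15 (0.000296) and for Bdf1 by 0.62 ± 0.16 (0.00932). The TBP arrays stood at 1.01, 0.74, 0.17 and 0.72 and the TAF1 arrays at 1.19, 1.46, 0.46 and 0.49, all above the Null arrays, which ran from -0.29 to 0.06. Spt3 (0.18 ± 0.15) and Mot1 (-0.07 ± 0.16) were not called. RNA of ADA2 was at -0.18 ± 0.16 (adjusted p = 0.42) and did not pass the test, and RPS17B was among the 8 genes with the deepest RNA fall. The TBP call was lost without TBP array A and the Bdf1 call without Bdf1 array A, while the TAF1 call was kept with any 1 of the 28 arrays left out.

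The other was the second region of RPS27A. TBP was at 0.73, 0.43, 0.74 and 0.66 on arrays A to D, TAF1 at 0.85, 0.91, 0.80 and 0.61, and the Null arrays between -0.39 and 0.06. The effects were 0.64 ± 0.10 for TBP (limma, adjusted p = 0.00031), 0.79 ± 0.10 for TAF1 (2.45e-05) and 0.64 ± 0.11 for Bdf1 (0.000286). Spt3 was at 0.04 ± 0.10, and Spt3 differed from TAF1 by -0.76 ± 0.15 (adjusted p = 0.00605). Whether this fragment borders RPS27A is uncertain. A pair of regions carries the name of the neighbour APE2, an aminopeptidase gene that RefSeq lists with a second locus tag. The other of the pair follows the probe numbering of neighbouring regions, which held in 3869 of 4376 cases, and is the likelier neighbour. There TBP was at -0.13 ± 0.08 and TAF1 at -0.03 ± 0.08, neither of them called. Without the second region 1 region was called higher for TBP, 1 for TAF1 and 3 for Bdf1.

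**Figure D4:**
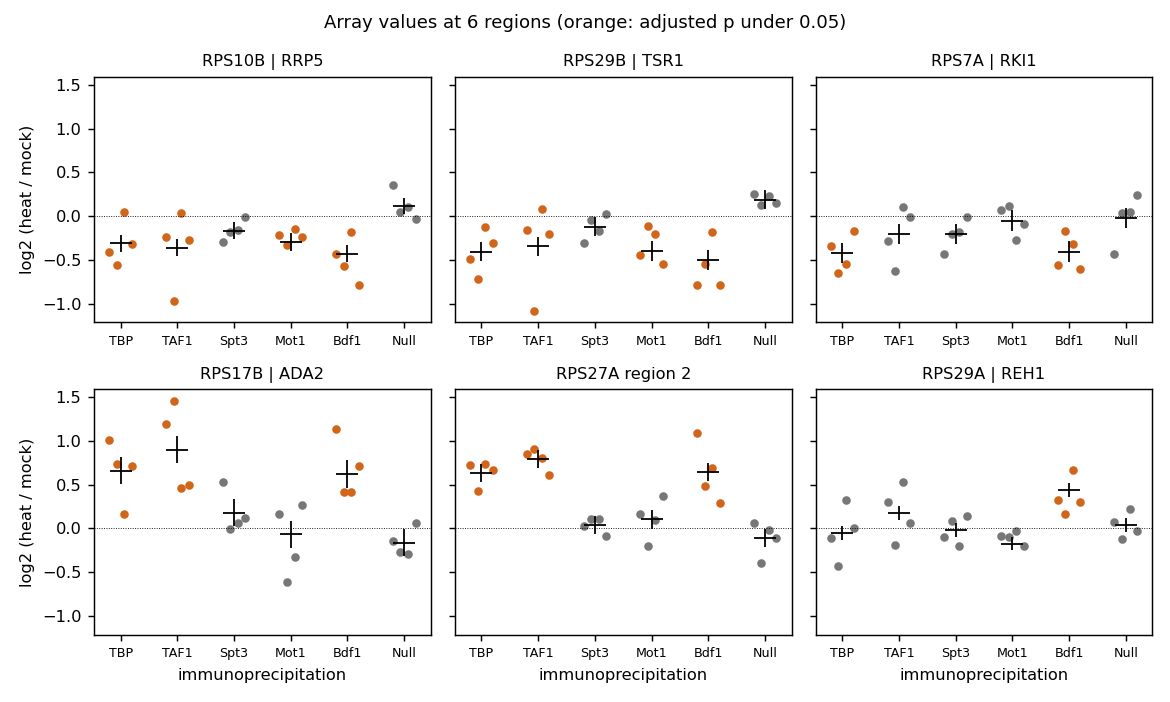
Array values at 6 small subunit regions for each immunoprecipitation, as log2 of heat over mock relative to the array's median, with the fitted effect and its standard error in black and called groups in orange. The fitted effects at RPS10B, RPS29B and RPS7A lie below 0 for TBP and Bdf1, where all arrays but TBP array C at RPS10B (0.04) do too, and RPS17B and the second region of RPS27A lie above 0 for TBP, TAF1 and Bdf1.

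The remaining calls each concerned 1 factor. Bdf1 was higher at RPS29A, shared with REH1, a gene for a large subunit assembly factor, at 0.44 ± 0.08 (limma, adjusted p = 0.000707), with 0.32, 0.17, 0.67 and 0.31 on arrays A to D. RNA of REH1 rose by 0.65 ± 0.18. Bdf1 was higher at RPS0A, shared with RTA1, at 0.49 ± 0.16 (0.0444), with -0.04 on array A and 0.62 to 0.67 on the others, and that call was kept in 17 of 28 cases of leaving out 1 array. RNA of RTA1 rose by 1.27 ± 0.21. Spt3 was lower at RPS0B, shared with FRE8, at -0.45 ± 0.12 (0.0363) and at RPS19B at -0.31 ± 0.09 (0.035), and both calls were lost when any Spt3 array was left out. Mot1 was lower at RPS4B, shared with MNL1, at -0.38 ± 0.12 (0.0433), a call kept in 16 of 28 such cases.

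Among estimates that did not pass the test, the highest for Mot1 were RPS11B at 0.56 ± 0.88, RPS14B at 0.47 ± 0.18 (limma, adjusted p = 0.0836) and RPS9A at 0.40 ± 0.18 (0.159). The highest for Spt3 were RPS13 at 0.60 ± 0.34, RPS0A at 0.26 ± 0.16 and RPS30A at 0.25 ± 0.14, and RPS22A, shared with RPL39, was among the 3 lowest at -0.45 ± 0.19 (0.169). TAF1 was at -0.35 ± 0.15 at RPS28B (0.0942) and at 0.20 ± 0.16 at RPS0A. On the Null arrays the extremes were RPS11B at 1.73 ± 0.88 and RPS23B at -0.74 ± 0.26 (0.125), and these exceed most effects of the factors.

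ASC1 had no called region for any factor. Its region bordered 1 promoter, and TBP stood at -0.49, -0.73, -0.13 and -0.31 on arrays A to D, an effect of -0.42 ± 0.34 (limma, adjusted p = 0.504). The standard error was widened by single high values of 2.32 on Null array A and 2.47 on Bdf1 array D. RPS11B was the least precise region, with TBP at 0.78 ± 0.76 and Bdf1 at 1.94 ± 0.93 (adjusted p = 0.164), and its Null array B at 3.36. Missing values left RPS11B with 3 arrays each for Mot1, Bdf1 and Null.

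Each factor was then set against Null within the same fit, which subtracts the Null effect and adds the spread of the Null arrays. The share of background in a factor's signal is not known, so the difference need not be an effect free of background. For TBP 3 of 54 regions differed from Null (6.96% of all regions did), for TAF1 6 (11.5%), for Mot1 1 (6.96%) and for Bdf1 5 (8.71%). For Spt3 0 regions differed (limma), against 0.954% of all regions. At an unadjusted p under 0.05 there were 15 of the 54, against 1210 of all 6392 regions. RPS29B differed for TBP (-0.60 ± 0.15), TAF1 (-0.53 ± 0.15), Mot1 (-0.59 ± 0.16) and Bdf1 (-0.69 ± 0.16). RPS17B differed for TBP (0.82 ± 0.22), TAF1 (1.07 ± 0.22) and Bdf1 (0.78 ± 0.22). RPS28B differed for TAF1 (-0.66 ± 0.21, adjusted p = 0.0421), and so did RPS17A, shared with YML6 (-0.73 ± 0.24, 0.0469), and RPS10B (-0.48 ± 0.14, 0.0253). RPS10B (-0.55 ± 0.14) and RPS29A (0.40) also differed for Bdf1, and the second region of RPS27A for TBP (0.75 ± 0.15), TAF1 (0.91 ± 0.15) and Bdf1 (0.76 ± 0.15). For RPS17A the TAF1 effect itself was -0.11 ± 0.17 and the Null effect 0.62 ± 0.17, with 1.67 and 0.72 on Null arrays A and B. Its call was kept in 5 of 28 cases of leaving out 1 array. RPS7A, lower for TBP and Bdf1, did not differ from Null beyond the threshold (-0.40 ± 0.16 and -0.38 ± 0.16).

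Whether TFIID and SAGA subunits differed at these promoters was tested as Spt3 minus TAF1. The difference passed at 1 of 54 regions, the second of RPS27A, against 4.05% of all regions, and its median over the members was -0.05. TAF1 minus TBP passed at 0 of 54 regions (limma), against 0.0156% of all regions. Unadjusted p was under 0.05 at 2 of the 54, against 304 of all 6392 regions. Its differences ran from -0.96 (RPS11B, standard error 1.07) to 0.24, with a median standard error of 0.19.

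Other gene groups show how occupancy ran beside RNA elsewhere. At 67 large subunit regions not shared with a small subunit gene TBP was higher at 1 and lower at 2, with a median of -0.11, and Spt3 was higher at 1 and lower at 5, with a median of -0.18. At 15 regions of the 40S maturation genes TBP was higher at 1 and lower at 6 (median -0.22), TAF1 higher at 1 and lower at 8 (median -0.34) and Bdf1 lower at 7 and higher at 0 (median -0.38). The region shared by RPS29B and TSR1 is in that set as well. RNA of the maturation genes had fallen with a median of -1.55 and that of the small subunit genes with a median of -1.97. Whether the occupancy of these lists differed was not tested. Across the 53 member regions with both values the Spearman correlation of the RNA effect with the TBP effect was 0.16, with TAF1 0.05 and with Spt3 0.05, as a description, and regions shared with a neighbour are among them.

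The A and B copies of a protein were compared as their difference within each array. Pairs were taken as genes whose symbols differ only in a final A or B. For RNA 4 of 24 small subunit pairs differed, against 11.9% of all 59 pairs tested. The 59 include the 24, and COX5 and NHP6 were the only pairs outside the ribosomal protein genes. That share is thus not one over paralogues in general. RPS22A fell further than RPS22B, with a difference of A minus B of -0.90 ± 0.12 (limma, adjusted p = 0.021), with -0.56 and -1.23 on heat arrays A and B. RPS14A fell further than RPS14B (-0.87 ± 0.12, 0.021), and RPS7A further than RPS7B (-0.78 ± 0.12, 0.0235). RPS27A fell less than RPS27B (0.69 ± 0.13, 0.0378). In these 4 pairs both heat arrays had the same sign, which held for 14 of the 24 pairs in all. The 4 were called on these same arrays, so this agreement is partly built in. None of the 4 was called with any 1 of the 4 RNA arrays left out, and the copies of most pairs are nearly identical in sequence, so that a probe may hybridise with RNA of both and the differences are uncertain.

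The A copy was the lower of the pair in 12 pairs and the higher in 12. For 17 of the 24 pairs the difference was under 0.5 in size, and the widest was 0.90 for RPS22. RPS9 had an uncalled difference of 0.80 ± 0.26 (limma, adjusted p = 0.132), with RPS9A at -1.18 and RPS9B at -1.98. RPS30A and RPS30B, the genes with the smallest and the fifth smallest RNA fall, differed by 0.58 ± 0.13 (0.0708). The probes of both copies fell in every pair. Where a pair was called different, its probes thus differed in the depth of the fall and not in its direction. Most pairs were not called, and for them a difference in depth was not shown. Because a probe may hybridise with RNA of both copies, the direction of each copy by itself was not tested.

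**Figure D5:**
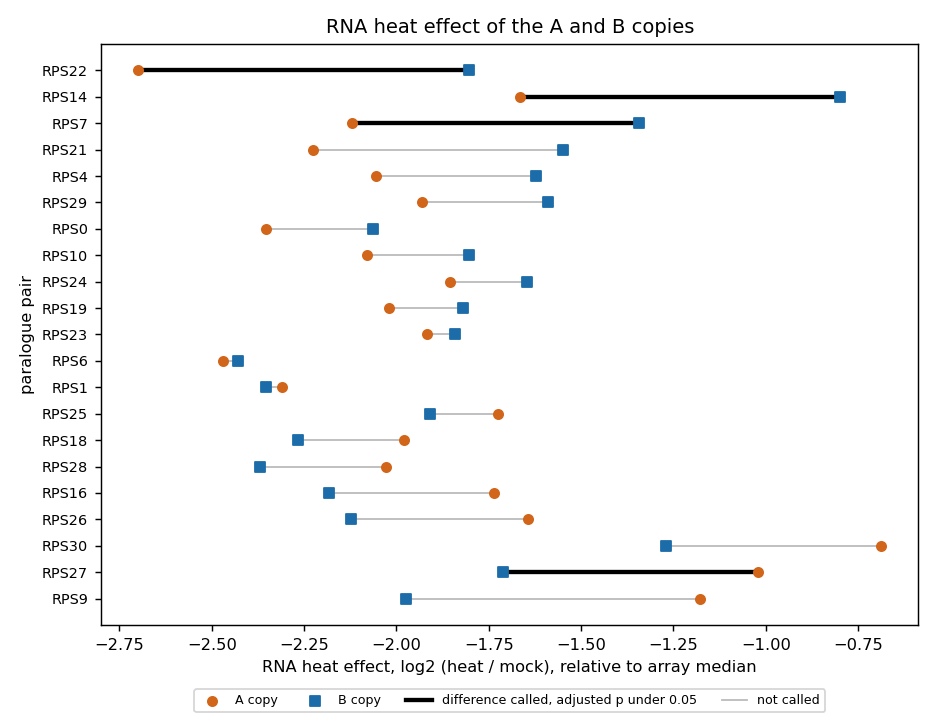
RNA heat effect of the A (circles) and B (squares) copy of 21 of the 24 small subunit pairs, as log2 of heat over mock relative to the array's median, ordered by their difference, with thick lines for the 4 called pairs. All copies lie below 0, and the widest called gap is 0.90 for RPS22.

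At the promoters 22 of the pairs could be compared, among 49 pairs in all, which include them and were drawn by the same rule on symbols. TBP differed at 3 small subunit pairs (8.16% of all 49), TAF1 at 2 (4.08%), Spt3 at 2 (10.2%), Mot1 at 2 (10.2%), Bdf1 at 5 (26.5%) and Null at 4 (14.3%). The RPS29 pair differed for TBP by 0.35 ± 0.09 (limma, adjusted p = 0.0125), TAF1 by 0.52 ± 0.09 (0.000213) and Bdf1 by 0.94 ± 0.09 (1.16e-08), with the A copy higher. Its Bdf1 difference was 1.11, 0.71, 0.84 and 1.10 on arrays A to D. The regions are shared with REH1 on the A side and TSR1 on the B side, whose RNA moved in opposite directions.

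The RPS7 pair differed for TBP by -0.42 ± 0.10 (limma, adjusted p = 0.0095) and Bdf1 by -0.59 ± 0.10 (8.23e-05), with the A copy beside RKI1 lower. For Mot1 the called pairs were RPS4 (0.55 ± 0.13, 0.00472) and RPS9 (0.68 ± 0.20, 0.032), and RPS9A shares its region with MOT1 itself, the gene of the tagged factor. For Spt3 they were RPS0 (0.70 ± 0.17, 0.00689) and RPS26 (-0.49 ± 0.10, 0.00176). For Bdf1 RPS26 (0.45 ± 0.10) and RPS10 (0.43 ± 0.12) were called as well. On the Null arrays the calls included RPS30 (-0.48 ± 0.15), RPS24 (-0.57 ± 0.18) and RPS16 (-0.25 ± 0.08), as background of the immunoprecipitation. Set against the Null difference of the same pair, a test added after the values were seen, 3 pairs passed for TBP and 3 for TAF1 (RPS29 and RPS26 among both), 5 each for Spt3 and Bdf1, and 1 for Mot1. The share of all 49 pairs that passed this test is not given, so these counts cannot be set against it. Of the pairs named above, RPS4 and RPS9 for Mot1, RPS10 for Bdf1, RPS26 for Spt3 (-0.21 ± 0.14, adjusted p = 0.331) and RPS7 for TBP (-0.36 ± 0.13, 0.0638) no longer passed. RPS29 kept its sign there, at 1.09 ± 0.13 for Bdf1 (adjusted p = 4.02e-07). When only pairs with 1 promoter in each region were tested, 12 in all, 0 small subunit pairs were called for any of the 5 factors and 1 for Null.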

How the data were processed

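The authors deposited, for each feature of each 2-channel array, 1 log2 ratio between the channels. Its centring, its direction and the image processing are not stated in the labels or files. ChIP arrays held 6644 to 6953 values and RNA arrays 6865 to 6944, and the number of arrays limits the precision. Ratios were turned to heat over mock with the channel labels and centred on each array's median. Heat shocked material was in channel 1 on 2 of 4 arrays of a ChIP group, except on 3 of 4 for Mot1 and 1 of 4 for Bdf1, and on 1 of the 2 heat RNA arrays.

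Effects were fitted with limma 3.58.1 in R 4.3.3, as 1 fit of 28 ChIP arrays (7 group coefficients and a channel effect, features with at least 3 arrays in every group, 6392 of 7047 regions) and 1 fit of 4 RNA arrays (heat and channel effects, at least 3 arrays including both heat arrays, 6772 of 7056 probes), with Benjamini-Hochberg adjustment over all features. The scripts were tested on simulated data.

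Gene names came from the platform annotation and the RefSeq gene table. A ChIP region was taken to lie on the right side of the gene it is named for. This was decided with values in view: on 1336 regions between 2 genes on the Crick strand the TBP effect correlated with RNA of the left gene (rho 0.42, right gene -0.0051), and on 1354 on the Watson strand with RNA of the right gene (0.46, left gene -0.02). The members, gene lists and rule for named genes (the 8 lowest and 6 highest RNA effects, called regions and pairs, up to 3 extremes per factor, ASC1 and up to 4 examples per other list) were chosen with earlier results of these data known. A count of promoter motifs was planned and not done, because no promoter sequence was used here. Values of some members and pairs are not reported here, and counts include them. Alternatives left out each array, the centring, the channel effect or shared regions, scaled or weighted arrays, changed the filter, used names alone, or added a replicate block. Figures were drawn with matplotlib 3.10.9.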

Additional observations from a re-analysis of the deposited data

Results flagged for a closer look

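Among 41 sets of 4 arrays tested for a single distant value, 6 had a gap over range above Dixon's 95% critical value, which chance alone passes in about 1 in 20 sets. Most sets were regions named for their values, so that rate is no yardstick for them. The ratios of single regions are on values with the channel effect taken off, and that of the Mot1 median is on values without that step. They were the median of the small subunit regions on the Mot1 arrays (0.892, array B high), RPS19B for Spt3 (0.931), RPS0A for Spt3 (0.945) and for Bdf1 (0.961, array A low), and, on the Null arrays, RPS1A (0.944) and ASC1 (0.862, array A high). On the array values printed above, with the channel effect left in, the ratio was 0.381 for RPS19B and 0.738 for RPS1A, both under the critical value, and 0.918 to 0.982 for the other 3 regional sets.

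Several regions differed from Null in the test of the difference itself (limma, adjusted p under 0.05). RPS17B was above Null for TBP by 0.824, TAF1 by 1.07 and Bdf1 by 0.784. The second region of RPS27A was above Null for TBP by 0.752, TAF1 by 0.908 and Bdf1 by 0.757, and Spt3 minus TAF1 was -0.756 there. RPS29A was above Null for Bdf1 by 0.399. RPS29B differed from Null by -0.596 for TBP, -0.533 for TAF1, -0.587 for Mot1 and -0.69 for Bdf1, and RPS10B by -0.478 for TAF1 and -0.547 for Bdf1. For TAF1, RPS17A (-0.729) and RPS28B (-0.664) were below Null as well, with Null effects of 0.62 and 0.31.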

How the results depend on the processing

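Of 713 alternative values of 21 counts, 587 lay within 1.5 times the reported count, and of 1458 alternatives of named values 1206 kept direction and call, 215 lost the call and 37 reversed. The RNA fall of the small subunit genes was called for 39 to 56 of 56 genes on leaving out 1 array (39 without heat array B). Occupancy counts are small and depend on centring most, since the arrays' own medians then enter each group. Without centring 0 small subunit regions were called for TBP, TAF1, Spt3 and Bdf1, 52 for Mot1 and 44 for Null, 15 for TBP minus Null, and 0 for TAF1, Mot1 and Bdf1 minus Null and for Spt3 minus TAF1. The values that reversed were then RPS29B TBP minus Null at 0.50, TAF1 minus Null at 0.29 for RPS10B, 0.035 for RPS17A, 0.10 for RPS28B and 0.23 for RPS29B, and Bdf1 minus Null at 0.17 for RPS10B and 0.027 for RPS29B. For the settings that follow the cause was not tested. With equal spread the counts were 4 for Spt3, 3 for TAF1 minus Null and 2 for Spt3 minus Null. With no channel effect they were 0 for Spt3, Mot1 and Mot1 minus Null, 3 for TAF1 minus Null, 1 for RNA pairs and 0 for Null pairs. Array weights gave 14 for TBP, 2 for TAF1, 5 for Spt3, 7 for TBP minus Null, 2 for TAF1 minus Null, 1 for Spt3 minus Null and 4 for Spt3 minus TAF1. Among regions of 1 promoter, which are fewer, 1 was called for TBP, TAF1, Spt3 and Bdf1 each and 0 for Mot1, 1 for TBP minus Null, 2 for TAF1 minus Null, 0 for Mot1 minus Null and 1 for Bdf1 minus Null, and among such pairs 0 for each factor and 1 for Null. By probe name alone the counts were 1 for Spt3, 6 for Mot1, 2 for TAF1 minus Null, 2 for Mot1 minus Null, 3 for Bdf1 minus Null and 0 for Spt3 minus TAF1. With 1 region for RPS27A, a choice made after seeing the data, Spt3 minus TAF1 had 0 calls, and with pair differences set against Null, also added later, Spt3 had 5 pairs and Mot1 1.

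The replicate letters did not pair arrays across groups: residuals of 78 same-letter pairs correlated at -0.33 to 0.29, with a median of -0.04 against 0.02 for other letters. With the letter as a replicate block 3 regions were called for TBP, 6 for Spt3 and 2 for Mot1 minus Null, and 0 RNA, Mot1 and Null pairs, and the RNA count stayed at 56.

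Leaving out 1 array gave 1 to 6 calls for TBP (1 without TBP array A, 6 without Null array A), 2 to 4 for TAF1 (2 without TAF1 array B), 0 to 4 for Spt3 (0 without any 1 Spt3 array, 4 without TAF1 array B), 0 to 4 for Mot1 (0 without Mot1 array C or D), 5 to 8 for Bdf1 and 0 to 4 for Null (4 without Null array C). Against Null it gave 1 to 5 for TBP (1 without Null array B or TBP array A or B), 2 to 6 for TAF1 (2 without Null array B or TAF1 array A or B), 0 to 2 for Spt3, 0 to 2 for Mot1 and 2 to 5 for Bdf1 (2 without Bdf1 array D), and 0 for TAF1 minus TBP and 1 to 2 for Spt3 minus TAF1. For pairs it gave 0 for RNA, 0 to 4 for TBP (0 without TBP array C), 1 to 3 for TAF1 (1 without TAF1 array A or B), 1 to 4 for Spt3 (1 without Spt3 array B), 0 to 2 for Mot1 (0 without Mot1 array B), 4 to 6 for Bdf1 and 0 to 5 for Null (0 without Null array A or B).

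Read as already turned by condition, a setting added after the data were seen, 0 small subunit regions were called for TBP, TAF1, Spt3, Mot1 and Bdf1, for each of TBP, TAF1, Mot1 and Bdf1 minus Null and for Spt3 minus TAF1. None of the 37 named ChIP values kept its call, and those below also changed sign. For TBP these were RPS10B at 0.13, RPS17B at -0.068 and RPS29B at 0.10. For TAF1 these were RPS10B at 0.26, RPS17B at -0.076 and RPS29B at 0.30. For Spt3 these were RPS0B at 0.22 and RPS19B at 0.18. For Mot1 these were RPS29B at 0.053. For Bdf1 these were RPS0A at -0.063, RPS10B at 0.31, RPS17B at -0.31, the second region of RPS27A at -0.14, RPS29A at -0.0084, RPS29B at 0.38 and RPS7A at 0.17. For TBP minus Null these were RPS17B at -0.013, the second region of RPS27A at -0.045 and RPS29B at 0.052. For TAF1 minus Null these were RPS10B at 0.15, RPS17B at -0.021, the second region of RPS27A at -0.10, RPS28B at 0.26 and RPS29B at 0.25. For Mot1 minus Null these were RPS29B at 0.0028. For Bdf1 minus Null these were RPS10B at 0.20, RPS17B at -0.25, the second region of RPS27A at -0.28, RPS29A at -0.12 and RPS29B at 0.33.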
